A study of Mus musculus with 2 samples.

Results

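The 6 genes described here encode parts of the T cell receptor complex: the signalling chains Cd3d, Cd3e, Cd3g and Cd247, the beta chain variable segment Trbv1 and the gamma chain variable segment Trgv1. They were chosen as the genes of these names that a probe reports alone in the platform annotation. Each of the 6 has 1 such probe, out of 4331 genes with a probe of their own among 8014 probes. No probe annotated to several genes holds any of them.

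Total RNA came from CD5+ gamma delta T cells of wildtype mouse spleens and of spleens with the LAT3YF allele, with no age or strain background given. Per the labels, the cells were sorted on a FACSDiva after enrichment with anti-CD5 magnetic beads. LAT is the membrane adaptor through which an engaged T cell receptor recruits its signalling enzymes, and 3YF stands for tyrosines of it replaced by phenylalanine. The series consists of 2 two-colour arrays that carry both populations, 1 per channel, with the channels exchanged between them (+ polarity and - polarity). The labels name no separate animals or RNA extracts behind the arrays, so the pair is 1 replicate of the comparison. Values are log10 ratios, given first on the + polarity array and then on the - polarity array with its sign turned, followed by the mean ± SD of the 2 arrays. That SD includes technical error, and the labels do not tell whether it also includes differences between animals. No p-value was computed. A positive value marks a transcript more abundant in 1 population, the same one throughout, and a negative value one more abundant in the other. The labels state neither the dyes nor which channel was divided by which, so the sign that belongs to LAT3YF is not settled. A gene was called when its mean ratio reached 2-fold, a log10 value of 0.301 or more in either direction, and both arrays gave it the same sign. No intensity was analysed, so for a ratio near 0 equal amounts of RNA and a signal too weak to give a ratio cannot be told apart.

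A T cell receptor binds antigen through a pair of variable chains, alpha with beta or gamma with delta, whose variable segments are joined to the rest of the gene by DNA rearrangement in each cell. These chains cannot signal alone. The alpha beta pair reaches the cell surface together with the CD3 delta, epsilon and gamma chains and the CD247 zeta dimer. The tails of these partners carry the tyrosine motifs called ITAMs. The kinase Lck phosphorylates the ITAMs, Zap70 binds them and phosphorylates LAT. Gamma delta T cells draw on the same set of CD3 and zeta genes as alpha beta T cells. Which of these chains their surface receptor holds was not measured here. A beta chain is not part of a gamma delta receptor.

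Cd3g, Cd3d and Cd3e follow each other in this order without another gene between them in the RefSeq gene table (GRCm38.p6). Cd3d is transcribed on the strand opposite to both others, while Cd247 lies on another chromosome. Of the 6 genes, 4 had an entry in the RefSeq promoter table of that build, and the 250 bases before each start are shown for these 4, the signalling chains, which are transcribed from separate starts. Capitals mark matches, on either strand, to an ETS motif (AGGAAGT or ACTTCCT) and to an E-box of the kind bound by E proteins (CACCTG or CAGGTG).
Cd3d (chr9:44981536-44981785, + strand): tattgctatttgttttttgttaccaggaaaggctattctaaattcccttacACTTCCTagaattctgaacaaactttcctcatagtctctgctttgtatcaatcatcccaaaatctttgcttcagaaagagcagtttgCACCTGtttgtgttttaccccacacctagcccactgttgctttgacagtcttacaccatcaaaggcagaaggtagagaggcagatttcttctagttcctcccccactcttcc
Cd3g (chr9:44980432-44980681, - strand): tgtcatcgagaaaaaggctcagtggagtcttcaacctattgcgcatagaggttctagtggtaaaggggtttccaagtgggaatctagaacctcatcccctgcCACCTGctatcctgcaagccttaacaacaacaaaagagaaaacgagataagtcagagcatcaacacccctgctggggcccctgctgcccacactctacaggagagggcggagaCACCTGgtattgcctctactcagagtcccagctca
Cd3e (chr9:45009612-45009861, - strand): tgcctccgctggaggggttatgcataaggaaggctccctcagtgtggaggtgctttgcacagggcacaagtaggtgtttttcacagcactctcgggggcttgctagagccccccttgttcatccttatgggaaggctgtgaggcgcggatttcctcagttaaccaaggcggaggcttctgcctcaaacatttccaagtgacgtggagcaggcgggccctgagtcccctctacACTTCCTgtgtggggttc
Cd247 (chr1:165788431-165788680, + strand): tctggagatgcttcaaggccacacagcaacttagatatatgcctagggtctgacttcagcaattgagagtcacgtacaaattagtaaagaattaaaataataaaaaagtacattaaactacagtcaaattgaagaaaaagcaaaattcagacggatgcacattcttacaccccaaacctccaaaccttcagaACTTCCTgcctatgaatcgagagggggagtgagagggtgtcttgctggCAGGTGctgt
The ETS letters occurred once each before Cd3d, Cd3e and Cd247, beginning 199, 18 and 58 bases before the start. The E-box letters occurred once before Cd3d (112 bases) and Cd247 (10 bases) and at 148 and 35 bases before Cd3g. Of all 32851 windows of 250 bases in the table, 7.69% hold the ETS letters and 17.2% the E-box letters. A RUNX motif (TGTGGT or ACCACA, in 14.0% of windows) and a TATA motif (TATAAA or TTTATA, in 12.4%) were also searched and had no match in these 4 windows. The motifs do not overlap each other in these windows. These are matches of letters only, and no binding was measured.

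The segment Trbv1 stood far from the 5 other members. Its log10 ratio was 0.995 with + polarity and 1.02 with - polarity, a mean of 1.01 ± 0.0175, or 10.2-fold. Both arrays therefore gave nearly the same value, and the SD was below the median SD of 0.0579 over all genes. The other 5 members lay between -0.185 and 0.110, and none was called. The background for this count was 8.75% of genes called in either direction, with 3.72% called positive and 5.03% negative, and 1 of the 6 members was called. All 6 members had the same sign on both arrays, as did 59.6% of all genes. At 3-fold, where 3.32% of genes were called, Trbv1 was again the 1 member called, and at 1.5-fold, where 17.9% were, Cd247 was called as well, on the negative side. Trbv1 was also the 1 member called on the + polarity array by itself (10.4% of genes), on the - polarity array by itself (17.1%) and where each array had to pass 2-fold (6.28%). Among the 4331 genes Trbv1 ranked 10 from the positive end, and by single arrays it ranked 12 (+ polarity) and 8 (- polarity). Folds assume that the deposited values are log10. Read as log2 the Trbv1 ratio would be 2.01-fold, where 0.393% of genes would be called, and read as natural logs 2.74-fold, where 1.43% would be.

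**Figure D1:**
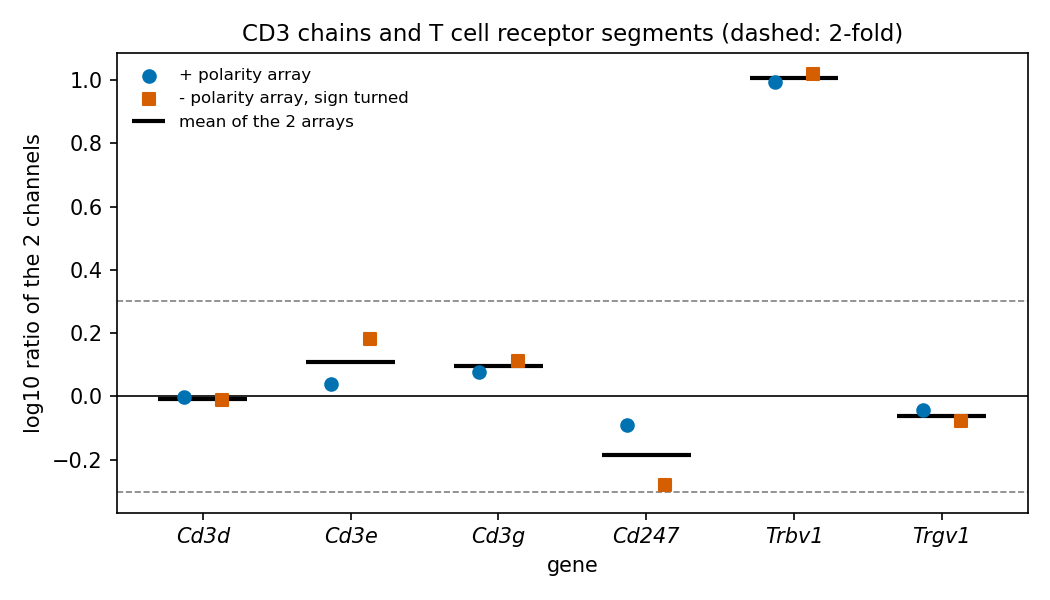
Log10 ratio (vertical axis) of each of the 6 genes on the + polarity array (circles) and on the - polarity array with its sign turned (squares), with the mean as a bar and 2-fold as dashed lines. Trbv1 lies at 0.995 and 1.02, and both values of every other gene lie within the dashed lines.

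CD3 epsilon, which pairs with both the delta and the gamma chain, gave 0.0387 and 0.182, a mean of 0.110 ± 0.10 (1.29-fold). The mean is barely larger than the spread between the arrays. CD3 gamma, encoded by Cd3g, gave 0.0778 and 0.113, a mean of 0.0954 ± 0.025 (1.25-fold). Its arrays lay closer together, and both were positive. CD3 delta, encoded by Cd3d, gave -0.00296 and -0.0118, a mean of -0.00738 ± 0.0063 (1.02-fold). Of all genes, 93.7% had a mean ratio larger in size than Cd3d, whose 2 values were among the closest to each other, with 6.97% of genes having a smaller SD. CD247, the zeta chain, gave -0.0895 and -0.280, a mean of -0.185 ± 0.13 (1.53-fold). It was the lowest member, and it amounted to 1.91-fold with - polarity against 1.23-fold with + polarity. Over the 4 chains together the mean ratio was 0.0060 with + polarity and 0.000725 with - polarity, and the median was 0.018 and 0.051. These means near 0 combine a negative Cd247 with positive Cd3e and Cd3g. The range of the 4 chains was 0.167 with + polarity and 0.462 with - polarity. The order of the lowest (Cd247) and the next (Cd3d) was the same on both arrays.

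Set against the mean of Cd3d, Cd3e and Cd3g, Cd247 was lower by log10 differences of -0.127 (+ polarity) and -0.375 (- polarity, with a mean of -0.251 ± 0.17 or 1.78-fold). The sign was the same on both arrays while the size differed between them nearly by the mean itself. Cd247 also associates with Fc receptor and natural cytotoxicity receptor chains in NK cells, and all 9 measured of 14 listed NK cell markers had negative means, from -0.979 to -0.0723, with 8 called negative, against 5.03% of all genes. The uncalled marker was Ncr1, at -0.0723 ± 0.031, and the 8 called are all lectin receptor genes of the Klr family. Klrg1, a lectin receptor gene outside that list, was positive at 1.07 and 1.11. The part of NK cell transcripts in the Cd247 ratio was not tested.

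The gamma segment Trgv1 gave -0.0434 and -0.0785, a mean of -0.0610 ± 0.025 (1.15-fold). Both values were negative and small, and 56.5% of genes had a larger mean ratio. Trbv1 exceeded Trgv1 by 1.07 ± 0.042 in log10 ratio (11.7-fold) and the mean of the 4 CD3 chains by 1.00 ± 0.021 (10.1-fold). Trgv1 differed from the mean of the CD3 chains by -0.0643 ± 0.021.

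In order of their mean ratios the members ran Trbv1, Cd3e, Cd3g, Cd3d, Trgv1 and Cd247. Neighbours in this order were compared by the difference of their log10 ratios on each array. Trbv1 lay above Cd3e by 0.897 ± 0.084. Cd3e and Cd3g differed by 0.0150 ± 0.077, within the spread, and changed places between the arrays. Cd3g lay above Cd3d by 0.103 ± 0.031 and Cd3d above Trgv1 by 0.0536 ± 0.019, in both cases on both arrays. Trgv1 lay above Cd247 by 0.124 ± 0.11, which hardly exceeds the spread.

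**Figure D2:**
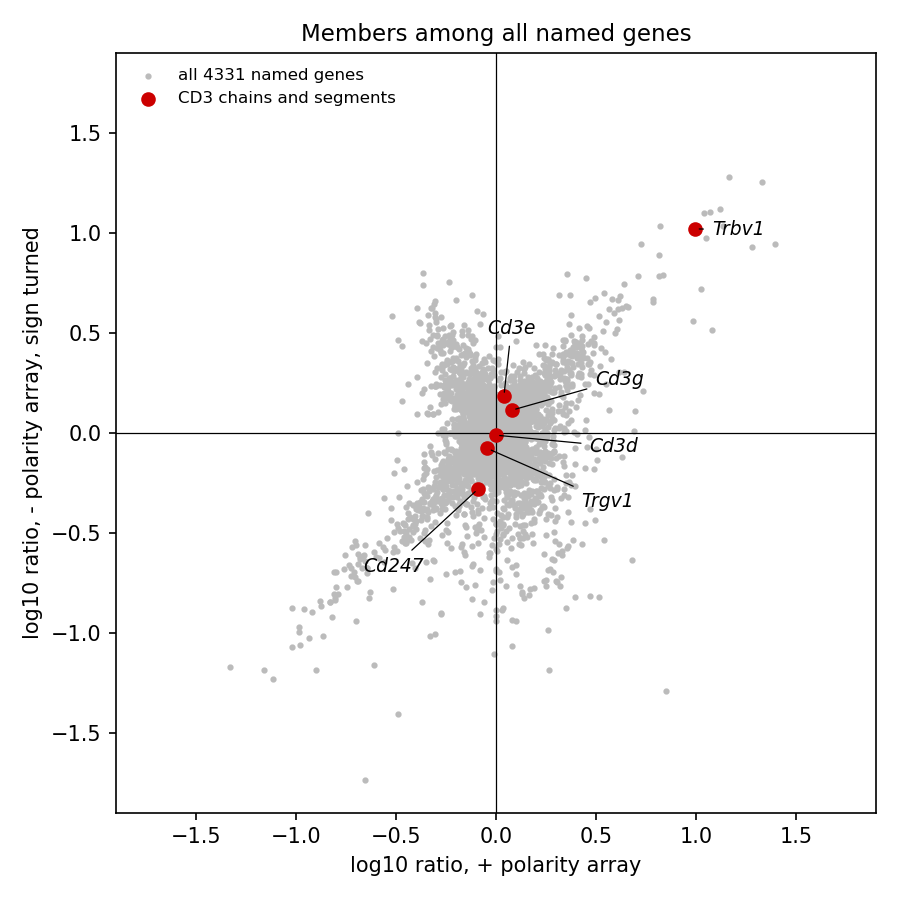
Log10 ratio on the + polarity array (horizontal axis) against the - polarity array with its sign turned (vertical axis) for the 4331 named genes (grey), with the 6 members in red. Trbv1 lies near 1 on both axes at the edge of the cloud, and the 5 others lie in its centre.

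The genes most like each member were taken as the 3 with the smallest distance over both ratios, across 2 arrays. Around Trbv1 only 2 genes lay within 0.1, the type 2 cytokine gene Il13 (1.05 and 0.975, distance 0.0725) and the neural adhesion gene Cntn1 (1.04 and 1.10, distance 0.0917). Klrg1, a lectin receptor of effector lymphocytes, came next at 1.07 and 1.11. Around the other members the cloud was dense, with 1293 genes within 0.1 of Cd3d, 960 of Trgv1, 731 of Cd3g, 390 of Cd3e and 85 of Cd247. There the nearest genes carry little information. They were Dlat, Il7r and Ccl12 for Cd3d, Cab39, H2-T24 and Nectin3 for Cd3e, and F2r, E2f3 and Crct1 for Cd3g. For Cd247 they were Ppp4r1, Slc1a5 and Camk2a, and for Trgv1 they were Rab24, Sp3 and Sp100.

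Other receptor segments were looked up by their symbols, after values were seen. In all, 6 segments had a probe of their own, through 7 probes, and Trbv1 was the 1 called. The other beta segment, Trbv13-2, had probes that disagreed. Its first probe gave 0.133 and 0.0907 (mean 0.112 ± 0.030), and its second gave 0.546 and -0.0806 (mean 0.233 ± 0.44). Neither probe came near the ratio of Trbv1. The alpha segment Trav6-2 gave -0.0264 and -0.0750, a mean of -0.0507 ± 0.034. Trav19 (0.0939 and -0.458) and Trav3-3 (0.0578 and -0.309) had opposite signs on the arrays, so their means of -0.182 ± 0.39 and -0.125 ± 0.26 are smaller than the spread. No constant-region gene of any receptor chain was measured by a named probe. The Trbv1 probe is annotated through 1 transcript accession, and whether it reads that segment alone or also sequence shared with other beta chain transcripts was not tested. Near-identical segments can share signal, so the gene assignment of all segment probes is uncertain.

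**Figure D3:**
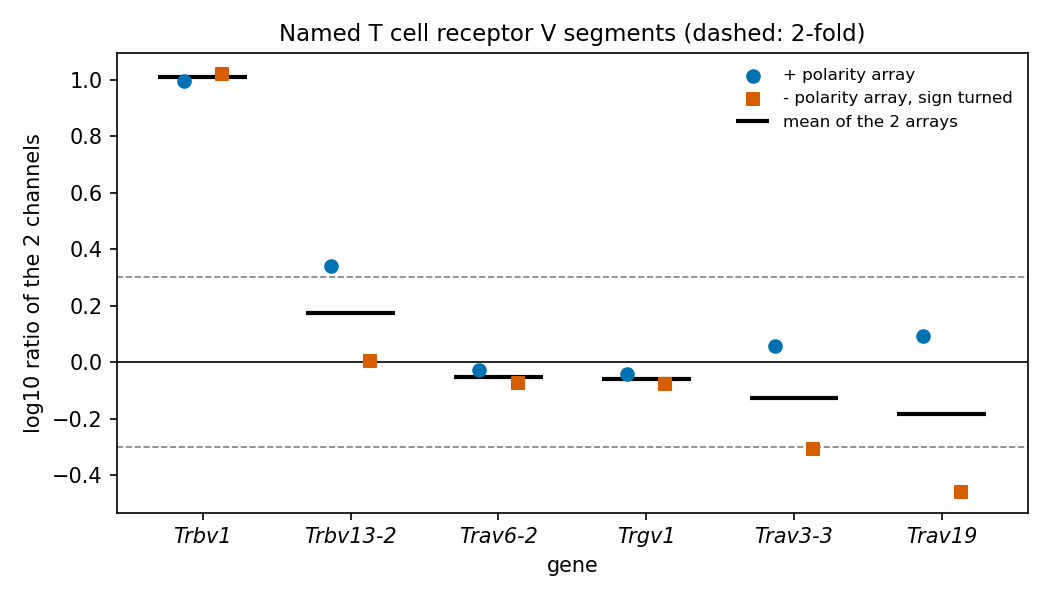
Log10 ratio of the 6 named receptor V segments on each array (circles, + polarity; squares, - polarity turned), with the mean as a bar, probes of Trbv13-2 averaged, and 2-fold as dashed lines. Trbv1 alone lies beyond 2-fold on both arrays, and Trav19 and Trav3-3 lie on both sides of 0.

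The CD3 chains belong to a wider class of ITAM-bearing chains, of which 8 were measured. None was called positive and 3 were called negative, against 3.72% and 5.03% of all genes, and all 8 had the same sign on both arrays, against 59.6% of all genes. Fcer1g, the common Fc receptor gamma chain, which resembles zeta and can replace it in the receptor of some T cells, gave -0.403 and -0.481, a mean of -0.442 ± 0.055 (2.77-fold). Tyrobp, the adaptor DAP12 of NK and myeloid receptors, gave -0.402 and -0.370, a mean of -0.386 ± 0.023 (2.43-fold). The B cell receptor chains Cd79b and Cd79a had means of -0.482 ± 0.065 (3.03-fold) and -0.217 ± 0.15, the second not called. The chains with the highest ratios were thus the 3 CD3 chains proper, Cd247 lay next, close to Cd79a, and Tyrobp, Fcer1g and Cd79b lay lowest. Hcst, the adaptor DAP10, which has no ITAM, was at 0.198 ± 0.0011. In the list of other receptor chains and ITAM adaptors, 7 of 35 genes were measured, with a median of -0.217. None was called positive, and the 3 called negative were the same Cd79b, Fcer1g and Tyrobp. Ptcra, another gene of that list and the partner of the beta chain in immature T cells, had opposite signs on the arrays (-0.219 and 0.0700). Fcer1g and Tyrobp are abundant in myeloid cells, and all 10 measured of 15 macrophage and dendritic cell markers had negative means, from -1.17 to -0.0221, 9 of them called. Of 10 measured B cell markers, which include Cd79a and Cd79b themselves, 9 had negative means and 4 were called negative, Cd79b among them. Cd22 was positive at 0.193, and Pax5 (-0.0184) and Ms4a1 (-0.174) were not called. Over all 4331 genes, 2114 had a mean below 0 and 5.03% were called negative. In bulk RNA, fewer cells of a type and less RNA per cell cannot be told apart. The part of these cell types in the ratios of the ITAM chains was not tested.

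**Figure D4:**
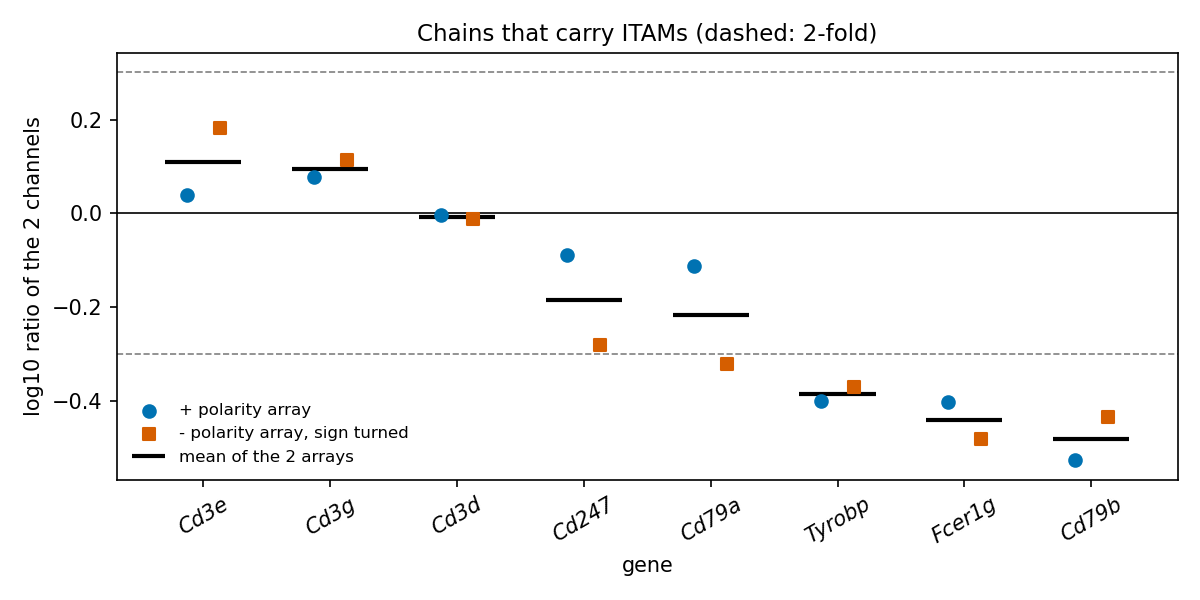
Log10 ratio of 8 ITAM-bearing chains on each array (circles, + polarity; squares, - polarity turned), with the mean as a bar and 2-fold as dashed lines, in order of the mean. Cd3e and Cd3g lie above 0, Cd3d at -0.00738, the means of Cd247 and Cd79a between 0 and the lower dashed line, and Tyrobp, Fcer1g and Cd79b beyond it.

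Genes of proximal T cell receptor signalling were taken from a list of 55, of which 33 were measured. The list also holds coreceptors and other surface molecules, such as Cd4, Cd8a, Cd8b1, Cd2, Cd28, Cd5 and Cd6. Of these, 3 were called positive and 5 negative, against 3.72% and 5.03% of all 4331 genes, and the list's median of 0.0200 lay close to the median of all genes, 0.0023. The kinase Zap70, which docks on the phosphorylated ITAMs, was at 0.135 ± 0.072, and its relative Syk, abundant in B and myeloid cells, at -0.305 ± 0.049 (2.02-fold, called). Lat itself was at 0.179 ± 0.010 (1.51-fold), and the adaptor Lcp2 (SLP-76) at 0.190 ± 0.016. The Tec-family kinases Txk (-0.568 ± 0.0056, 3.70-fold) and Tec (-0.501 ± 0.069, 3.17-fold) were called negative, as were the coreceptor chains Cd8a (-0.654 and -1.74, mean -1.20 ± 0.77) and Cd8b1 (-1.18 ± 0.082). The positive calls were Cd5 (0.614 ± 0.0077, 4.11-fold), Cd6 (0.402 ± 0.079) and the adaptor Dok2 (0.418 ± 0.021). The log10 ratio of Cd5 lay 0.611 ± 0.011 above the mean of the CD3 chains, and that of Lat 0.175 ± 0.0067 above it. Both populations were isolated through CD5, and the part of that isolation in the Cd5 ratio was not tested.

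Of 36 listed genes of receptor gene rearrangement and of transcription factors in T cell development, 25 were measured, 3 were called positive and 4 negative, against 3.72% and 5.03% of all genes, and the median was 0.0032. Dntt, the polymerase that adds bases at segment joins, was at -0.648 ± 0.062 (4.45-fold). The recombinase genes Rag1 (-0.0428 and 0.323) and Rag2 (-0.115 and 0.197) had opposite signs on the arrays. The factors called positive were Gata3 (0.593 ± 0.0057), Sox13 (0.465 ± 0.034) and Zbtb7b (0.311 ± 0.075), and those called negative besides Dntt were Myb (-0.658 ± 0.50), the inhibitor Id3 (-0.390 ± 0.037) and the E protein gene Tcf4 (-0.342 ± 0.31). Of the other E protein genes, Tcf3 was at 0.0478 ± 0.097 and Tcf12 at -0.143 ± 0.014, and Ets1 was at -0.194 ± 0.32 with opposite signs. Neither Tcf3, Tcf12 nor Ets1 was called.

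The labelled cell type could not be checked, since both channels carry cells of the same label and levels were not analysed. The ratios show only how markers differed between the populations. Of 11 listed gamma delta T cell markers 5 were measured, none of them a receptor chain. Sox13 was called positive and Il17a negative at -0.479 ± 0.32. The uncalled genes Zbtb16 (-0.181 ± 0.031), Cd27 (-0.207 ± 0.029) and Blk (-0.245 ± 0.35, with opposite signs on the arrays) also had negative means, so 4 of the 5 means were below 0, with a median of -0.207. Of 8 alpha beta T cell markers 4 were measured, Cd8a, Cd8b1, Zbtb7b and Cd4 (0.0177 ± 0.047), and their median of -0.579 falls in a gap between 2 pairs of genes. Of 8 erythroid and platelet markers 4 were measured, all with negative means, and Epor (-0.604 ± 0.057) and Hba-a1 (-0.388 ± 0.0043) were called. All 6 marker lists had negative medians, between -0.936 and -0.207, against 0.0023 over all genes. The lists of both T cell types were mixed, however. Zbtb7b and Sox13 were called positive, as was Trbv1, while Cd8a, Cd8b1 and Il17a were called negative.

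**Figure D5:**
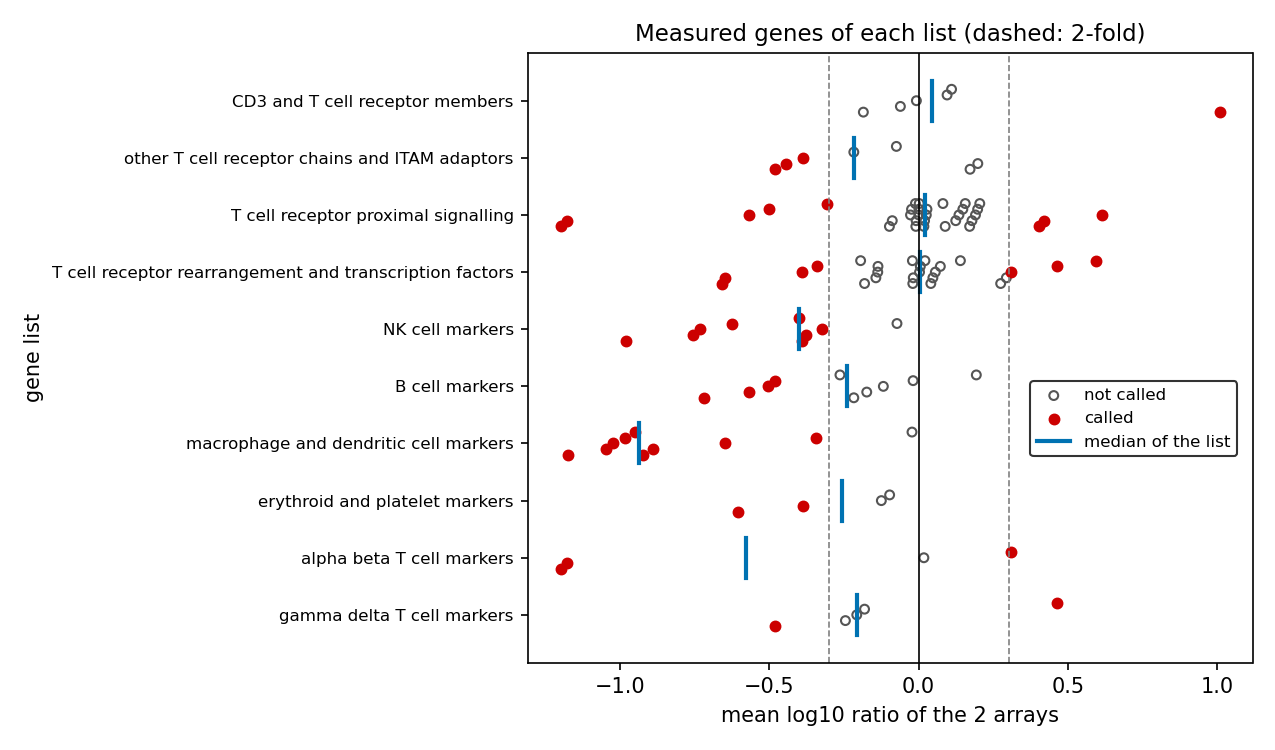
Mean log10 ratio over the 2 arrays (horizontal axis) of every measured gene of each list, with called genes filled, the list median as a vertical bar and 2-fold as dashed lines. Trbv1 is the single filled point of the top row, while most NK cell and macrophage markers are filled points on the negative side.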

How the data were processed

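The authors deposited a table with a log ratio between both channels for each probe on each array, read here as log10. Neither the labels nor the table state its base, the scanner, the background correction or the normalization. The deposited columns had medians of -0.00283 and 0.00101 over 8014 probes and correlated at r = -0.301 across probes. The labels give the channels as exchanged between the arrays, so the - polarity column was multiplied by -1 and both were averaged. Probes with several genes (73) or none listed (3287) were left out, and the value of a gene is the mean over its probes. All 6 member identifiers matched the RefSeq gene table.

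The members and gene lists were chosen with earlier results of these data known. Named genes were all members, Lat, Cd5, Fcer1g, Tyrobp, up to 4 called genes per list and side, and the 3 nearest genes of each member. The called NK cell and macrophage markers were not named and were given as counts and ranges. Of the called B cell markers only Cd79b was named. Other genes with values, including the receptor segments, were added after values were seen. Alternatives were single arrays, centring, scaling, probe choice, added multi-gene probes, thresholds and log bases. The calling rule was tested on simulated data. Python 3.11.15, numpy 2.4.6, pandas 2.3.3 and matplotlib 3.10.9 were used. The number of arrays limits the precision.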

Additional observations from a re-analysis of the deposited data

How the results depend on the processing

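Trbv1 was called on each array alone, with centring or scaling, at 3-fold and at 2-fold on each array. It was also called with values read as log2 or natural logs. The probe settings could not change any member, because each has 1 probe and no multi-gene probe holds a member. Likewise, 1.5-fold could not undo a call made at 2-fold. The Trbv1 ratio ranged from 0.995 to 1.02 over single arrays, centring and scaling. Under log2 its 2.01-fold only just passes. At 1.5-fold the count of members called was 2, with Cd247 added on the negative side, and Cd247 passes that threshold narrowly (1.53-fold). No alternative changed the sign of a member. The count over all genes, 379, was 742 with the - polarity array alone and 452 with the + polarity array alone, 774 at 1.5-fold, 144 at 3-fold, 17 under log2 and 62 under natural logs. At 1.5-fold the 2 members called stand against 17.9% of all genes, and at 3-fold the 1 member against 3.32%. The 8 calls in the list of proximal signalling genes became 5 at 3-fold and 2 under log2. The 8 NK cell marker calls became 5 on the + polarity array alone and 4 where each array had to pass by itself. Under log2 and natural logs the NK cell marker calls became 0 and 3. The 9 macrophage and dendritic cell marker calls became 3 and 7, and the 4 B cell marker calls 0 and 1. The 3 calls among other receptor chains and ITAM adaptors became 1 at 3-fold and 0 under either base. No paired analysis was possible because the pair of arrays is 1 replicate and no test was made.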
